A study of Mus musculus with 48 samples.

Results

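The hepatic expression of 9 genes that carry fatty acids into and through cells was examined in mice with and without PPARα under 2 diets. The genes were *Cd36*, *Slc27a1*, *Slc27a2*, *Slc27a4*, *Fabp1*, *Fabp2*, *Fabp4*, *Fabp5* and *Lpl*. Their members on the array were all probes that carry one of these gene names and are not control spots, which gave 16 probes of 56605. All 16 passed the filter on dim probes, among 33323 tested probes with 22029 gene names. Where a gene had several probes, its value was that of the probe with the highest mean signal, and this probe was well above background in all 8 mice of every group for each of the 9 genes.

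Liver RNA of 48 male C57BL/6J mice, 8 in each of 6 groups, was hybridised to 1-colour Agilent arrays, a separate array for every mouse. WT, Pparα hep-/- and Pparα-/- mice received either the control diet (CTRL) or a high fat diet (HFD) of 60% fat, for 12 weeks and to 20 weeks of age per the labels. In Pparα-/- mice the gene is deleted in the germline. In Pparα hep-/- mice a floxed allele is deleted by Cre under the albumin promoter, so non-parenchymal liver cells and other organs keep it. All mice were housed at thermoneutrality and killed in the fed state, and the study's methods give a shorter time on the diets than the labels do. The WT mice were purchased whereas the mutants were bred in house, so the source of the mice and the genotype cannot be told apart.

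CD36 is a scavenger receptor at the cell surface that takes up long-chain fatty acids, and the fatty acid transport proteins encoded by the *Slc27* genes combine uptake with activation to acyl-CoA. Inside the cell, fatty acid binding proteins (FABPs) carry the hydrophobic chains between membranes, mitochondria and the nucleus. Lipoprotein lipase (LPL) acts outside the cell, where it releases fatty acids from the triglycerides of lipoproteins. PPARα is a nuclear receptor that binds fatty acids and activates many genes of their uptake and oxidation, and it pairs with RXR on a direct repeat of 2 half-sites with 1 base between them, called DR1.

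The promoter of *Fabp1*, the abundant FABP of hepatocytes, is shown because it was the only promoter among those of the 9 genes read here that held a DR1 match. It is printed from RefSeq (GRCm38.p6, chr6:71199629-71199878, plus strand), as the 250 bases before the start of the transcript, with the match in capitals.
Fabp1 promoter: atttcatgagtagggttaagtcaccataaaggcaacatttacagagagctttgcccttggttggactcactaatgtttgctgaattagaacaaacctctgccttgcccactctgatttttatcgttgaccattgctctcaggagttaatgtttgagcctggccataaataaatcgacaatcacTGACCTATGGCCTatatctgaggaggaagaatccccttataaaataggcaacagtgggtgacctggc
The letters searched were AGGNCANAGGNCA on either strand, and the match lay 67 to 55 bases upstream. Promoters of 6 of the 9 genes (*Cd36*, *Slc27a1*, *Slc27a2*, *Slc27a4*, *Fabp1* and *Fabp2*) were in the table, and among all 32851 promoters of this length 111 (0.338%) held the DR1 letters. The single half-site AGGTCA, searched on either strand, was held by 14.0% of all promoters. It was found 228 to 223 bases upstream of *Cd36* and 220 to 215 bases upstream of *Slc27a2*. In *Fabp1* it lay 9 to 4 bases upstream and, within the DR1 match, 67 to 62 bases upstream. These matches describe the letters only.

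Probes are shown where the result of a gene rests on more than 1 of them or where a probe is not unique. The second probe of *Fabp4* (mm9, chr3:10208442-10208501, minus strand) and both further *Lpl* probes that were designed on its RefSeq mRNA (mm9, plus strand, chr8:71425050-71425109 and chr8:71419652-71419711) were these.
Fabp4 A_52_P564544: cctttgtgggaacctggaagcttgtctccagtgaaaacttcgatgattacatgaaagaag
Lpl A_52_P257812: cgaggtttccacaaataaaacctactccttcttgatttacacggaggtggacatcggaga
Lpl A_66_P123790: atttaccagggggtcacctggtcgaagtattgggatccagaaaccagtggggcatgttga
The probe of *Fabp5* (A_55_P1953387, mm9, chr3:10016185-10016244) shared an unbroken run of 50 bases with a probe that the array names NAP114472-1 (A_55_P2122841). The first 30 bases of that run are in capitals here.
Fabp5 shared run: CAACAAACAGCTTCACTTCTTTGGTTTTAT
Across the 48 arrays the signals of these 2 probes correlated with r = 0.999, so the *Fabp5* signal may hold more than 1 transcript and is uncertain in that sense. No other member probe shared more than 15 bases in a row with a probe of another name.

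Values are log2 normalised signals, and differences are those of limma, in which each array has a weight and the wash batch is a term. They can therefore differ from the difference of plain group means. Precision is limited by the number of arrays per group. The median spot intensity was 56 to 91 per array, 28234 to 38217 spots were well above background, and 0 were saturated. The arrays came from 6 slides and 2 wash batches and were scanned on 1 day. *Ppara* itself remained well above background in all mice. Its probe A_55_P2055854 differed from WT mice by -0.42 on CTRL (adjusted p = 8.87e-04) and -0.85 on HFD (adjusted p = 5.12e-10) for Pparα hep-/-, and by -0.65 (adjusted p = 1.1e-06) and -1.08 (adjusted p = 2.77e-14) for Pparα-/- mice. The second probe (A_55_P2071596) differed by -0.10 on CTRL (adjusted p = 0.454) and -0.68 on HFD (adjusted p = 3.34e-08) for Pparα hep-/-, and by -1.11 on CTRL (adjusted p = 5.27e-13) and -1.29 on HFD (adjusted p = 1.74e-17) for Pparα-/- mice. This probe did not separate Pparα hep-/- from WT mice on CTRL. Whether these probes lie in the deleted part was not established, so they check the labels only in part. All 7 hepatocyte markers were well above background in every mouse. Against WT mice on HFD, 1 of 7 was lower in Pparα hep-/- (*Apoa1*) and 3 of 7 in Pparα-/- mice (*Apoa1*, *Hnf4a* and *Cps1*), and on CTRL these 3 were lower in both mutants. Of all probes, 13.4% and 24% were lower on HFD in these mutants in turn, and 13.4% and 18.7% on CTRL. In bulk liver RNA, fewer cells of a type and less RNA per cell cannot be told apart.

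Of the 48 arrays, 7 had a weight under 0.6 (the next lowest was 0.701). These were WT CTRL mice 6 and 8, WT HFD mice 1, 2 and 6, Pparα hep-/- CTRL mouse 1 and Pparα-/- CTRL mouse 3. WT CTRL mice 6 and 8 had high *Cd36* (10.21 and 10.11) and high *Lpl* (11.95 and 12.19) and the lowest *Fabp5* of their group (11.73 and 13.05). WT HFD mice 1 and 2 had the lowest *Cd36* (8.45 and 8.16) and *Fabp2* (13.94 and 13.36) and, with WT HFD mouse 6, stand apart from the remaining mice of that group. Leaving out all 7, a choice made after the data were seen, ended 1 of 46 calls, that of *Slc27a2* between Pparα-/- and WT mice on CTRL (-0.17, adjusted p = 0.0848). It also added calls. Among them were *Fabp4* between Pparα-/- and WT mice on CTRL (0.51, adjusted p = 0.0309), *Slc27a4* between Pparα hep-/- and WT mice on CTRL (0.40, adjusted p = 0.0397), *Lpl* between the mutants on HFD (0.75, adjusted p = 0.0232) and, for *Fabp2*, the difference in response between the mutants (0.71, adjusted p = 0.0198).

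**Figure D1:**
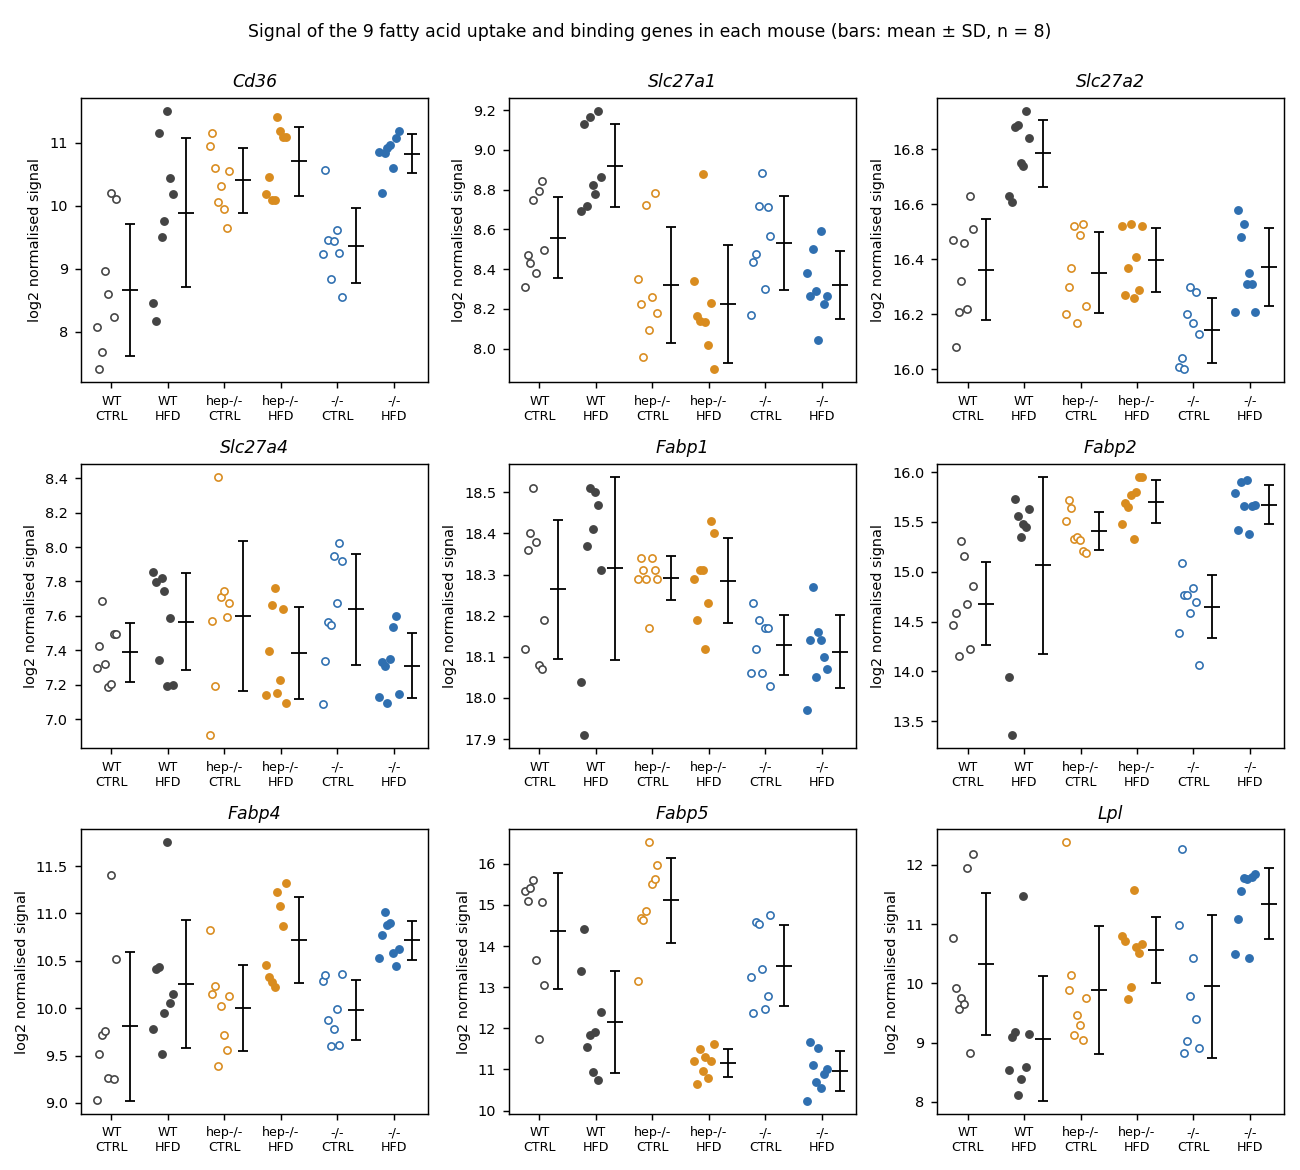
Each point is 1 mouse (8 per group) and gives the log2 normalised signal of a gene, with open points for CTRL and filled points for HFD, and black bars for the mean and SD (n = 8). *Fabp5* fell from a median of 15.18 to 11.21 in Pparα hep-/- mice without overlap, whereas the *Lpl* medians of the HFD groups were 8.84 for WT, 10.64 for Pparα hep-/- and 11.66 for Pparα-/- mice.

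The first question was how each genotype responded to the HFD. In WT mice 4 of the 9 genes rose and 2 fell, where 8.6% of all tested probes rose and 10.1% fell (18.7% in either direction). In Pparα hep-/- mice 2 rose and 2 fell, where 9.46% of all probes rose and 10.8% fell (20.2% in all), and 5 rose and 1 fell in Pparα-/- mice, where 12.2% rose and 12.6% fell (24.8% in all). The median difference over the 9 genes was 0.43, -0.00 and 0.20 for these genotypes in turn, against -0.01, -0.01 and -0.02 over all probes. With the processed signal scaled to the 75th percentile the median of the 9 genes was -0.02 for Pparα-/- mice, against -0.05 over all probes. The diets did not overlap for 0 genes in WT mice (0.603% of all probes), for 1 gene in Pparα hep-/- mice (0.591%) and for 3 genes in Pparα-/- mice (1.44%).

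The second question was where the genotypes differed on each diet. On CTRL, 2 genes were higher and 0 lower in the Pparα hep-/- mice (11.3% of all probes higher and 13.4% lower, 24.7% in all) and 1 was higher and 3 lower in the Pparα-/- mice (15.6% higher and 18.7% lower, 34.2% in all), each against WT mice. For 0 genes the groups were without overlap in either comparison (1.31% and 6.15% of all probes). On HFD against WT mice, 3 genes were higher and 2 lower in the Pparα hep-/- mice (13.3% and 13.4% of all probes, 26.7% in all), with 1 gene without overlap (1.44%). In the Pparα-/- mice 3 were higher and 3 lower (21.8% and 24% of all probes, 45.7% in all), with 2 genes without overlap (6.93%). Between the mutants, 5 genes were lower and 0 higher on CTRL in Pparα-/- mice (13% and 12.2% of all probes, 25.2% in all), with 1 gene without overlap (4.43%). On HFD 0 were higher and 1 lower (15.2% and 15.4% of all probes, 30.6% in all), with 0 genes without overlap (6.55%).

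The diet response itself was compared between genotypes as well. Relative to WT mice it was more positive for 1 gene and more negative for 2 in the Pparα hep-/- mice (4.62% and 5.79% of all probes, 10.4% in all), and likewise for 1 and 2 genes in the Pparα-/- mice (6.93% and 7.42%, 14.3% in all). Between the mutants it was more positive for 1 gene and more negative for 0 in Pparα-/- mice (2.12% and 1.3%, 3.42% in all). Of 33323 probes, 1139 are behind this last share, and 550 to 1408 when 1 array was left out. Comparisons with WT mice share the WT samples, and comparisons across diets share groups as well.

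**Figure D2:**
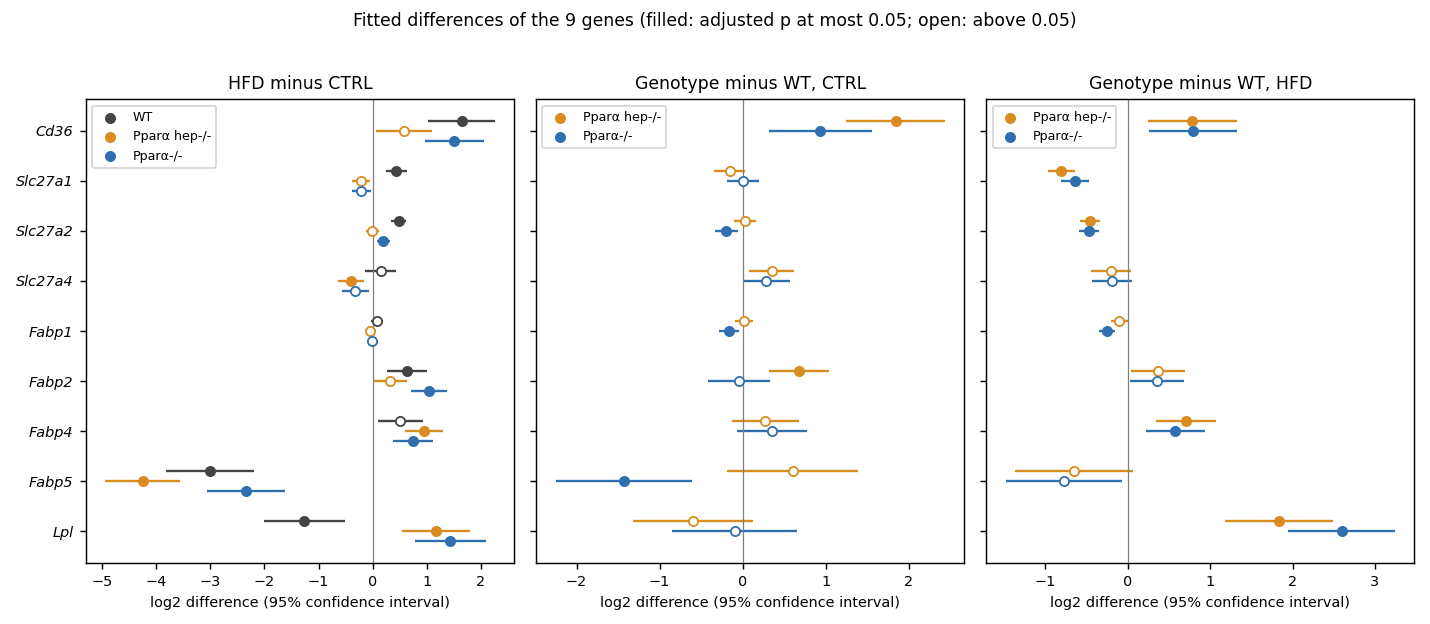
Fitted log2 differences of the 9 genes with their 95% confidence intervals, between the diets within each genotype (left) and between each mutant and WT on CTRL (middle) and on HFD (right), with filled points at an adjusted p of at most 0.05. *Fabp5* lies at -3.00, -4.25 and -2.34 in the left panel, and *Lpl* lies at -1.26 in WT but at 1.17 and 1.43 in the mutants.

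*Cd36* encodes the surface receptor for long-chain fatty acids, and its probe lies at chr5:17288600-17288659 (mm9). Its signal in WT mice ranged from 7.40 to 10.21 on CTRL (median 8.41) and from 8.16 to 11.51 on HFD (median 9.97). Pparα hep-/- mice lay between 9.64 and 11.15 on CTRL (median 10.44) and between 10.10 and 11.42 on HFD (median 10.78). Pparα-/- mice ranged from 8.55 to 10.57 on CTRL (median 9.34) and from 10.20 to 11.19 on HFD (median 10.88). The WT CTRL mice were thus the lowest group, the 3 highest groups were Pparα hep-/- CTRL and both HFD groups of mutants, and all groups overlapped with a neighbour. In the order of the group means the only neighbours that differed were WT CTRL and Pparα-/- CTRL.

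*Cd36* rose on HFD by 1.64 ± 0.31 (SE) in WT mice (3.12-fold, adjusted p = 1.92e-04), and 6 of 8 WT HFD mice lay above the WT CTRL mean. The rise in Pparα-/- mice was 2.83-fold (log2 interval 0.96 to 2.05, adjusted p = 1.15e-04), with 8 of 8 mice above the CTRL mean. The difference in Pparα hep-/- mice was 0.58 with a 95% confidence interval of 0.07 to 1.10, which did not pass the adjusted test (adjusted p = 0.112). On CTRL, *Cd36* of Pparα hep-/- mice already exceeded that of WT mice by 1.84 ± 0.30 (3.58-fold, adjusted p = 1.27e-05). Pparα-/- mice lay between the others, 0.93 ± 0.32 above WT mice (1.91-fold, adjusted p = 0.0189) and 1.88-fold below Pparα hep-/- mice (adjusted p = 0.0143). Without WT CTRL mouse 2 the difference of Pparα-/- from WT mice was 0.74 (adjusted p = 0.0814), and without WT CTRL mouse 1 or 3 it was 0.81 or 0.83 (adjusted p = 0.0596 and 0.051). It also did not pass without array weights (0.71, adjusted p = 0.143) or without the filter (0.88, adjusted p = 0.0619). On HFD both mutants exceeded WT mice, with a difference of 0.78 for Pparα hep-/- (adjusted p = 0.0296) and 0.80 for Pparα-/- mice (adjusted p = 0.0149). The first of these was lost when any of 8 arrays was left out singly, at adjusted p from 0.0525 to 0.0934, and without array weights, the filter or the wash term or with only the groups compared (0.73 to 0.85, adjusted p from 0.0793 to 0.143).

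The diet response of *Cd36* differed by -1.06 between Pparα hep-/- and WT mice, with an interval of -1.86 to -0.25, but this did not pass (adjusted p = 0.0868). It passed when the 7 arrays of low weight were left out, at -1.41 (adjusted p = 0.00667), and then the response was 2.02 in WT mice (adjusted p = 1.66e-06) and 0.62 in Pparα hep-/- mice (adjusted p = 0.0361). Across the 48 mice, after subtraction of the group means, *Cd36* correlated with the summed signal of the 6 stellate cell markers with r = 0.726. This is a correlation without array weights over arrays that share a platform and wash batches. *Dcn* alone, which encodes decorin, made up 85.6 to 88.4% of this sum by group median. With the summed signal of 4 markers of keratinocytes, cells of the skin, r was 0.776, and *Trp63* made up 63.7 to 87.7% of that sum by group median. In WT mice, where *Cd36* rose by 1.64, 0 of 6 stellate markers were higher on HFD (median -0.09), against 2 of 6 in Pparα hep-/- and 6 of 6 in Pparα-/- mice, and their part in the result was not tested.

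*Slc27a1* encodes FATP1, a transporter best known from muscle and fat (probe at chr8:74110256-74110315, mm9). In WT mice the signal was between 8.31 and 8.84 on CTRL (median 8.48) and between 8.69 and 9.20 on HFD (median 8.84), with slight overlap. Pparα hep-/- mice lay between 7.96 and 8.78 on CTRL (median 8.24) and between 7.90 and 8.88 on HFD (median 8.15). Pparα-/- mice lay between 8.17 and 8.89 on CTRL (median 8.52) and between 8.04 and 8.59 on HFD (median 8.28). The HFD mice of WT and Pparα-/- groups did not overlap, where 6.93% of all probes were without overlap.

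*Slc27a1* rose in WT mice by 0.43 ± 0.10 (1.35-fold, adjusted p = 0.00136), with 8 of 8 mice above the CTRL mean. In the mutants it differed by -0.22 (Pparα hep-/-, adjusted p = 0.0591) and -0.21 (Pparα-/-, adjusted p = 0.0717). Both passed in some fits that left out 1 array, down to adjusted p = 0.0164 without Pparα hep-/- HFD mouse 4 and 0.0451 without Pparα-/- HFD mouse 1. The difference of the response from that of WT mice was -0.65 ± 0.13 for Pparα hep-/- mice (adjusted p = 0.00121) and -0.64 ± 0.13 for Pparα-/- mice (adjusted p = 8.67e-04). The former did not pass without array weights (-0.52, adjusted p = 0.053) or without the wash term (-0.45, adjusted p = 0.077). In the first and second wash batch alone it was -1.07 and -0.36, and the latter -0.91 and -0.40. On HFD Pparα hep-/- mice had 1.75-fold less (-0.80 ± 0.09, adjusted p = 1.59e-09) and Pparα-/- mice 1.55-fold less (-0.64 ± 0.09, adjusted p = 4.36e-08) than WT mice. On CTRL it differed from WT mice by -0.16 (interval -0.34 to 0.03) and 0.00 (interval -0.19 to 0.20), neither of which passed.

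*Slc27a2* encodes FATP2, the very long-chain acyl-CoA synthetase that is a main transporter of liver (probe at chr2:126413890-126413949, mm9). In WT mice it lay between 16.08 and 16.63 on CTRL (median 16.39) and between 16.61 and 16.94 on HFD (median 16.80), so that the groups barely overlapped. The Pparα hep-/- medians were 16.33 on CTRL and 16.39 on HFD, and no mouse of that genotype exceeded 16.53. The Pparα-/- medians were 16.15 and 16.33, with the highest mice at 16.30 on CTRL and 16.58 on HFD. WT HFD mice thus stood above all mutant mice on HFD, and both comparisons were without overlap (1.44% of all probes for Pparα hep-/-).

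*Slc27a2* rose on HFD in WT mice by 0.48 ± 0.07 (1.39-fold, adjusted p = 6.32e-06), at 0.68 and 0.29 in the first and second wash batch alone. The difference in Pparα hep-/- mice was -0.00 with an interval of -0.12 to 0.11, whereas in Pparα-/- mice the gene rose by 0.20 ± 0.06 (1.15-fold, adjusted p = 0.0172). The last value was -0.02 (adjusted p = 0.883) with the processed signal scaled to the 75th percentile in place of the quantile normalised median signal. Set against the response of WT mice, that of Pparα hep-/- mice differed by -0.48 ± 0.09 (adjusted p = 9.41e-04) and that of Pparα-/- mice by -0.28 ± 0.10 (adjusted p = 0.0429). The first of these was -0.39 without array weights and did not pass (adjusted p = 0.051), and it was -0.75 and -0.27 in the first and second wash batch alone. The second lost its call in 17 fits that each left out 1 array, and was smallest without WT CTRL mouse 2 (-0.22, adjusted p = 0.109). It was -0.12 in the second wash batch alone. It was -0.19 without array weights (adjusted p = 0.263) and did not pass in 5 further alternatives, at adjusted p from 0.0608 to 0.144. On HFD *Slc27a2* was 1.37-fold lower in Pparα hep-/- (adjusted p = 4.68e-07) and 1.39-fold lower in Pparα-/- mice (adjusted p = 2.51e-08) than in WT mice. On CTRL Pparα-/- mice differed from WT mice by -0.20 (adjusted p = 0.0307) and from Pparα hep-/- mice by -0.22 (adjusted p = 0.00855). The former was 0.03 in the first wash batch and -0.42 in the second, and without WT CTRL mouse 7 it was -0.15 (adjusted p = 0.115). The former was -0.20 with only the groups compared (adjusted p = 0.064). With the processed signal scaled to the 75th percentile neither difference passed (-0.15, adjusted p = 0.253, and -0.20, adjusted p = 0.0997).

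*Slc27a4* encodes FATP4, which is found in many tissues and on internal membranes (probe at chr2:29672983-29673042, mm9). All 6 groups overlapped between a lowest value of 6.91 and a highest of 8.41, both in Pparα hep-/- CTRL mice, and no neighbours in the order of the 6 means differed. The fall on HFD in Pparα hep-/- mice was -0.40 ± 0.12 (1.32-fold, adjusted p = 0.0146), although 3 of 8 HFD mice lay above the CTRL mean. Without Pparα hep-/- CTRL mouse 4 the difference was -0.27 (adjusted p = 0.121). It was -0.24 without array weights (adjusted p = 0.434), -0.37 without the filter (adjusted p = 0.0703) and -0.29 without the wash term (adjusted p = 0.112). In Pparα-/- mice the difference was -0.32 (adjusted p = 0.0555), which passed in 3 of 12 alternatives. The response of Pparα hep-/- mice set against that of WT mice was -0.55 (adjusted p = 0.051, past the threshold in 3 of 12 alternatives), and that of Pparα-/- mice against Pparα hep-/- mice was 0.08 (adjusted p = 0.874). The second probe of the gene, which was well above background in 2 to 5 of 8 mice per group, gave no call in any comparison.

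*Fabp1* encodes the liver FABP and its probe ranked between 23 and 68 of 33323 by signal on the single arrays (chr6:71154906-71154965, mm9). The medians of the 6 groups lay between 18.12 and 18.39, and single mice between 17.91 and 18.51. No diet response passed in any genotype, with 95% confidence intervals of -0.04 to 0.19 for WT mice, -0.14 to 0.06 for Pparα hep-/- mice and -0.11 to 0.09 for Pparα-/- mice. Pparα-/- mice had less *Fabp1* than WT mice on CTRL, by 0.16 (1.12-fold, adjusted p = 0.0275), and on HFD, by 0.25 (1.19-fold, adjusted p = 7.57e-05), and all 8 Pparα-/- mice lay below the WT mean on both diets. The CTRL difference lost its call in 4 fits that left out 1 array, to -0.13 without WT CTRL mouse 4 (adjusted p = 0.0949). It was also lost without array weights, without the filter, with only the groups compared and with the processed signal scaled to the 75th percentile, at adjusted p from 0.0623 to 0.115. They also had less than Pparα hep-/- mice, by 0.18 on CTRL (adjusted p = 0.00963) and 0.15 on HFD (adjusted p = 0.0138), whereas Pparα hep-/- mice differed from WT mice by 0.02 and -0.10 without passing. The second of these passed with the processed signal scaled to the 75th percentile (-0.28, adjusted p = 0.00287) and without the 7 arrays of low weight (-0.14, adjusted p = 0.0222). The differences between the mutants did not pass without array weights (-0.17, adjusted p = 0.0584, and -0.16, adjusted p = 0.0778).

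*Fabp1* values moved with the processed signal scaled to the 75th percentile, an alternative that changes the input signal and the scaling together. Under it *Fabp1* was lower on HFD in Pparα-/- mice by 0.35 (adjusted p = 7.76e-04). That response then differed from the response of WT mice by -0.36 (adjusted p = 0.0283), and the HFD difference between Pparα-/- and WT mice was -0.565 (adjusted p = 1.81e-08). On CTRL the mutants differed by -0.03 (adjusted p = 0.822). Its promoter, shown above, holds the DR1 letters.

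*Fabp2* encodes the intestinal FABP, which hepatocytes of mice also express (probe at chr3:122602276-122602335, mm9). Of 6 enterocyte markers 5 were below the filter in these livers, and the remaining one, *Vil1*, was well above background on all 8 arrays of no group. In WT mice *Fabp2* ranged from 14.15 to 15.31 on CTRL (median 14.63) and from 13.36 to 15.73 on HFD (median 15.46). Pparα hep-/- mice ranged from 15.19 to 15.72 on CTRL (median 15.34) and from 15.33 to 15.95 on HFD (median 15.73). Pparα-/- mice ranged from 14.06 to 15.09 on CTRL (median 14.73) and from 15.38 to 15.92 on HFD (median 15.66). Pparα hep-/- CTRL mice thus lay in full above Pparα-/- CTRL mice, where 4.43% of all probes had no overlap.

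*Fabp2* rose on HFD by 1.04 ± 0.17 in Pparα-/- mice (2.06-fold, adjusted p = 2e-05), without overlap between the diets. It rose by 0.64 ± 0.19 in WT mice (1.56-fold, adjusted p = 0.0135), but without WT HFD mouse 8 this was 0.53 (adjusted p = 0.0717), and without array weights it was 0.38 (adjusted p = 0.27). It also did not pass without the filter (0.56, adjusted p = 0.0856) or with only the groups compared (0.63, adjusted p = 0.139). Without the 7 arrays of low weight it was 0.85 (adjusted p = 1.31e-04). The difference in Pparα hep-/- mice was 0.32 (adjusted p = 0.152). On CTRL Pparα hep-/- mice had 1.6-fold more *Fabp2* than WT mice (0.68 ± 0.18, adjusted p = 0.005) and 1.65-fold more than Pparα-/- mice (adjusted p = 0.0012). WT and Pparα-/- mice on CTRL differed by -0.05 with an interval of -0.42 to 0.33. On HFD the differences from WT mice did not pass (0.36 for Pparα hep-/-, adjusted p = 0.103, and 0.35 for Pparα-/- mice, adjusted p = 0.0763), but the second passed without WT HFD mouse 3 or 8 (adjusted p = 0.0351 and 0.0355) and without array weights (0.61, adjusted p = 0.0277).

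*Fabp4* encodes the FABP of adipocytes and macrophages (brightest probe at chr3:10204452-10204511, mm9). On CTRL the medians were 9.62 for WT (9.03 to 11.40), 10.07 for Pparα hep-/- (9.39 to 10.82) and 9.93 for Pparα-/- mice (9.61 to 10.36). On HFD they were 10.11 for WT (9.52 to 11.75), 10.66 for Pparα hep-/- (10.22 to 11.32) and 10.69 for Pparα-/- mice (10.44 to 11.01). In Pparα-/- mice alone the diets did not overlap, and the highest WT mice were mouse 6 of each diet, both of low array weight.

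*Fabp4* rose on HFD by 0.95 ± 0.18 in Pparα hep-/- mice (1.93-fold, adjusted p = 1.82e-04) and by 0.74 ± 0.19 in the Pparα-/- mice (1.67-fold, adjusted p = 0.00311), with 8 of 8 mice above the CTRL mean in each. In WT mice the difference was 0.51 (adjusted p = 0.0832), which became 0.61 (adjusted p = 0.0187) without the 7 arrays of low weight. The tests of a difference between these responses did not pass (adjusted p from 0.32 to 0.753). On HFD it was 1.63-fold higher in Pparα hep-/- (adjusted p = 0.00359) and 1.49-fold higher in Pparα-/- mice (adjusted p = 0.00871) than in WT mice. All 4 calls were lost without array weights, at adjusted p from 0.0505 to 0.272. The second *Fabp4* probe, whose sequence is given above, gave the same calls in all 12 comparisons. Within groups *Fabp4* correlated with the summed markers of stellate cells (r = 0.752) and of lipid-associated macrophages (r = 0.717) over the 48 mice, and with those of keratinocytes at r = 0.714, all without array weights. A single gene carries much of each sum, as *Dcn* does for the stellate cells and *Spp1*, which encodes osteopontin, for the macrophages (44.2 to 67.8% by group median). Of 6 white adipocyte markers *Adipoq* and *Plin1* were below the filter, whereas *Lep* and *Adrb3* were well above background in all 48 mice and *Cfd* and *Retn* in some.

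*Fabp5* encodes the epidermal FABP, which macrophages and other cells also use, and had the largest diet response of the 9 genes in each genotype. In WT mice it ranged from 11.73 to 15.61 on CTRL (median 15.08) and from 10.74 to 14.41 on HFD (median 11.88). Pparα hep-/- mice ranged from 13.16 to 16.52 on CTRL (median 15.18) and from 10.64 to 11.62 on HFD (median 11.21). Pparα-/- mice ranged from 12.38 to 14.74 on CTRL (median 13.35) and from 10.24 to 11.66 on HFD (median 10.95). The diets did not overlap in either mutant, and in WT mice the overlap rested on CTRL mice 6 and 8 and HFD mice 1 and 2, all of low array weight, since the other CTRL mice lay at 13.66 or above and the other HFD mice at 12.40 or below.

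*Fabp5* fell on HFD 7.99-fold in WT mice (-3.00 ± 0.41, interval -3.81 to -2.19, adjusted p = 1.83e-06). The fall was 19.02-fold in Pparα hep-/- mice (-4.25 ± 0.35, adjusted p = 2.43e-11) and 5.06-fold in Pparα-/- mice (-2.34 ± 0.37, adjusted p = 1.26e-05). These 3 calls were kept in all 12 alternatives and all 48 fits that left out 1 array. The fall was larger in Pparα hep-/- than in Pparα-/- mice by 1.91 ± 0.51 (adjusted p = 0.0248), and this difference was lost without Pparα-/- CTRL mouse 6 (1.64, adjusted p = 0.0854), Pparα hep-/- HFD mouse 6 (1.82, adjusted p = 0.067) or Pparα hep-/- CTRL mouse 8 (1.80, adjusted p = 0.0512), without array weights (1.42, adjusted p = 0.462) and without the filter (1.84, adjusted p = 0.0916). On CTRL Pparα-/- mice had 2.7-fold less *Fabp5* than WT mice (-1.43 ± 0.42, adjusted p = 0.0062) and 4.1-fold less than Pparα hep-/- mice (-2.03 ± 0.38, adjusted p = 3.95e-05). The former was -0.84 without array weights (adjusted p = 0.19). On HFD the differences from WT mice were -0.65 for Pparα hep-/- (adjusted p = 0.189) and -0.77 for Pparα-/- mice (adjusted p = 0.0746). These depended on single WT mice, and without WT HFD mouse 7 they were -1.02 (adjusted p = 0.0483) and -1.13 (adjusted p = 0.0131), while without WT HFD mouse 5 the second was -0.93 (adjusted p = 0.0417). The probe that shares the run of bases shown above differed between the diets by -3.02 for WT, -4.31 for Pparα hep-/- and -2.37 for Pparα-/- mice. Within groups and without array weights, *Fabp5* ran against the summed markers of stellate cells (r = -0.527) and keratinocytes (r = -0.601), which was not tested.

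*Lpl* encodes lipoprotein lipase, which adult hepatocytes express at a low level and macrophages, stellate cells and fat express more (brightest probe at chr8:71430267-71430326, mm9). In WT mice it ranged from 8.83 to 12.19 on CTRL (median 9.83) and from 8.12 to 11.48 on HFD (median 8.84). Pparα hep-/- mice ranged from 9.04 to 12.38 on CTRL (median 9.60) and from 9.73 to 11.57 on HFD (median 10.64). Pparα-/- mice ranged from 8.83 to 12.27 on CTRL (median 9.59) and from 10.43 to 11.84 on HFD (median 11.66). Every pair of groups overlapped. WT HFD mouse 6, at 11.48, was the one WT HFD mouse above 9.17, and without it the WT HFD mice lay below all mice of both mutant HFD groups.

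*Lpl* moved in opposite directions with the diet. It fell 2.4-fold in WT mice (-1.26 ± 0.38, adjusted p = 0.0147). It rose 2.25-fold in Pparα hep-/- mice (1.17 ± 0.32, adjusted p = 0.00771) and 2.7-fold in Pparα-/- mice (1.43 ± 0.34, adjusted p = 0.00157). The responses differed from that of WT mice, with 2.43 ± 0.50 for Pparα hep-/- (adjusted p = 0.00157) and 2.69 ± 0.51 for Pparα-/- mice (adjusted p = 3.47e-04). The first of these was 2.00 without array weights and did not pass (adjusted p = 0.149). On CTRL no difference between genotypes passed for this probe (adjusted p from 0.249 to 0.878). On HFD *Lpl* was 3.57-fold higher in Pparα hep-/- (1.83 ± 0.33, adjusted p = 5.39e-05) and 6.04-fold higher in Pparα-/- mice (2.60 ± 0.33, adjusted p = 1.22e-08) than in WT mice, with 8 of 8 mice above the WT mean in each. With the mean of the 6 probes, some of them near background in WT mice, these differences were 1.10 and 1.62. The differences in response from WT mice were then 1.33 and 1.40, and all were still past the threshold. Between the mutants on HFD *Lpl* differed by 0.76 (adjusted p = 0.0568), which passed in 6 of 12 alternatives. The fall in WT mice did not pass without array weights (-1.26, adjusted p = 0.0748), without the filter (-1.22, adjusted p = 0.061), with only the groups compared (-1.21, adjusted p = 0.0609) or with the mean of the 6 probes (-0.52, adjusted p = 0.112). The rise in Pparα hep-/- mice was 1.11 without the filter (adjusted p = 0.0507), 0.96 without the wash term (adjusted p = 0.0557) and 0.74 without array weights (adjusted p = 0.49), where CTRL mouse 1, at 12.38 and with the lowest weight of 0.189, counts in full.

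The 6 *Lpl* probes were not alike. The 3 probes designed on the RefSeq mRNA, of which the sequences of 2 are printed above, were called lower in WT mice on HFD (-1.26, -0.98 and -0.61) and higher in both mutants. The other 3 differed by -0.01 to -0.16 in WT mice without passing. Of these, 2 probes designed on cDNA clones (A_55_P2738847 and A_55_P2900592) were higher on HFD, by 1.00 and 0.92 (Pparα hep-/-) and by 0.88 and 0.80 (Pparα-/-). The probe of an Ensembl transcript (A_55_P2715720) rose by 0.22 for Pparα hep-/- (adjusted p = 0.0297) and differed by 0.10 for Pparα-/- mice (adjusted p = 0.393). Against WT mice on HFD, all 6 probes were higher in Pparα-/- mice and 5 of 6 in Pparα hep-/- mice. This count includes the 2 cDNA clone probes, which passed the filter through mutant groups alone and are no separate support. Pparα-/- mice exceeded Pparα hep-/- mice for 3 of 6 probes on HFD. On CTRL they exceeded both other genotypes for 1 of 6, the Ensembl transcript probe, by 0.32 (WT, adjusted p = 0.00365) and 0.42 (Pparα hep-/-). The cDNA clone probes were well above background in 1 to 3 of 8 WT mice and 4 to 8 of 8 mutant mice per group. The dimmest of the RefSeq probes (A_66_P123790, -0.61 in WT mice) was well above background in 5 of 8 WT CTRL mice and 1 of 8 WT HFD mice.

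**Figure D3:**
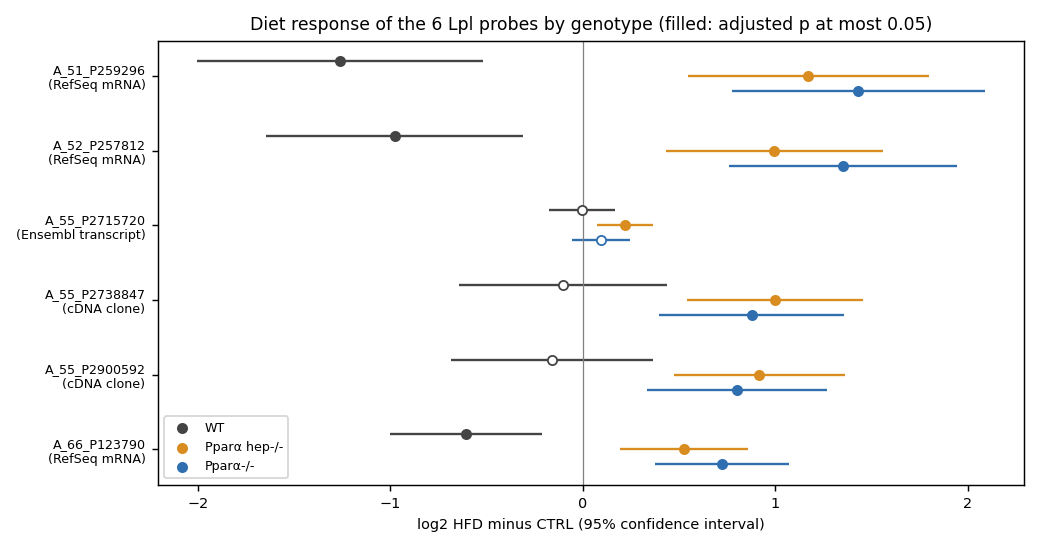
Fitted log2 difference between HFD and CTRL for each of the 6 *Lpl* probes in each genotype, with 95% confidence intervals and filled points at an adjusted p of at most 0.05. The 3 RefSeq mRNA probes lie below 0 in WT and above 0 in both mutants, whereas the Ensembl transcript probe lies between -0.01 and 0.22.

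Markers of other liver cells moved with *Lpl*. Of 6 lipid-associated macrophage markers, 4 were higher on HFD in each mutant, and in WT mice 0 were higher and 1 was lower. Against WT mice on HFD, 5 of 6 were higher in Pparα hep-/- and 6 of 6 in Pparα-/- mice, at a median difference of 1.56 and 1.27 against -0.02 over all genes for both. *Trem2*, the lipid receptor of lipid-laden macrophages, was higher by 1.98 and 1.36. *Gpnmb*, a glycoprotein of these cells, was higher by 3.41 and 3.27, sizes that are uncertain because most WT mice were near background. The summed signal of the 6 markers ranged from 2756 to 27540 in WT (median 4619), from 5670 to 20380 in Pparα hep-/- (median 8595) and from 5853 to 13120 in Pparα-/- HFD mice (median 10200). *Gpnmb* and *Mmp12* were well above background in 2 of 8 WT CTRL mice, in 3 of 8 WT HFD mice and in 8 of 8 HFD mice of each mutant. Both passed the filter through mutant groups alone, so their calls against WT mice are no separate support. Resident macrophage markers were higher for 6 of 8 on HFD in Pparα-/- mice and for 2 of 8 in Pparα hep-/- mice. Within groups *Lpl* correlated with the summed lipid-associated macrophage markers (r = 0.732) and stellate cell markers (r = 0.704), and with keratinocyte markers at r = 0.631, over the 48 mice, arrays that share a platform and wash batches. These correlations do not use the array weights. Arrays of low weight count in full, such as Pparα hep-/- CTRL mouse 1 (*Lpl* 12.38, macrophage sum 41290) and WT CTRL mouse 6 (11.95 and 28670). WT HFD mouse 2, also of low weight, went the other way (9.10 and 27540). By group median, *Spp1* made up 44.2 to 67.8% of the macrophage sum and *Gpnmb* at most 5.49%, and *Dcn* at least 85.6% of the stellate sum. The part of these cells in the *Lpl* and *Fabp4* results was not tested.

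**Figure D4:**
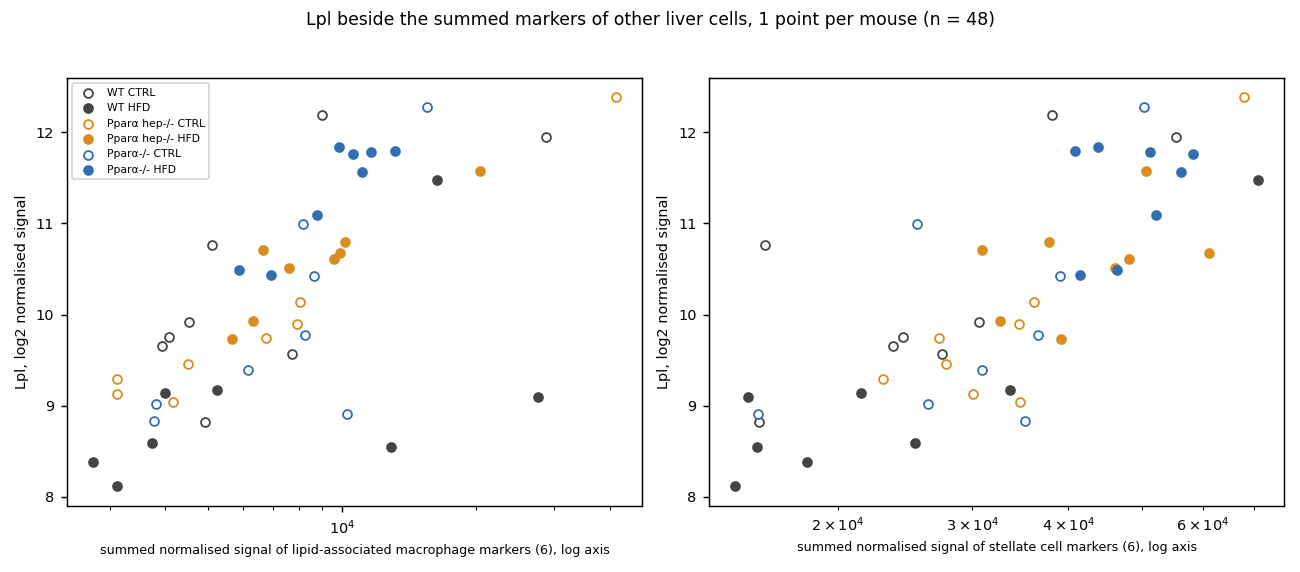
Each point is 1 mouse (n = 48), with the log2 signal of *Lpl* against the summed signal of 6 lipid-associated macrophage markers (left) or 6 stellate cell markers (right) on a log axis. Mice with more marker signal tended to have more *Lpl*, but WT HFD mice 1 and 2, with macrophage sums of 12860 and 27540, had *Lpl* at 8.54 and 9.10.

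In WT HFD mice, where *Slc27a2* was highest, the white adipocyte sum ranged from 2784 to 48540. The median share of *Cfd*, the serine protease adipsin, in this sum was 91.1%, but its log2 signal ranged from 5.74 to 15.51 in these mice. The *Lep* medians of WT mice were 7.42 on CTRL and 7.45 on HFD, and *Adipoq* and *Plin1* were below the filter. *Cfd* rose by 5.79 in WT mice (adjusted p = 3.81e-07) and differed by 0.58 and 0.64 in the mutants without passing. Within groups and without array weights, r with the white adipocyte sum was 0.55 for *Slc27a2*, 0.566 for *Fabp1* and 0.669 for *Fabp2*. For the other members it lay between -0.225 and 0.298, and the part of such cells was not tested. The 2 gene names most like each member over the 48 arrays were taken from 15575 candidates with a RefSeq gene symbol by Pearson's r, which holds the group differences as well. *Cd36* was most like *Mgst3* (r = 0.915, rho = 0.928) and *Bche* (r = 0.914), and *Fabp2* was most like *Slc16a7* (r = 0.9) and *Mgst3* (r = 0.873). *Fabp4* was most like *Ctla2a* (r = 0.912) and *Clec4n* (r = 0.891), and *Lpl* was most like *Dok1* (r = 0.911) and *Speg* (r = 0.895). Of these, *Fabp5* was most like *Atg16l2* (r = 0.849) and *Adgrf1* (r = 0.843), while the probe NAP114472-1 (r = 0.999), which shares bases with its probe, has no such symbol and was no candidate. *Slc27a4* was most like *Mafa* (r = 0.849) and *Mr1* (r = 0.744). *Slc27a2* was most like *Mmd* (r = 0.833) and *Cfd* (r = 0.809), *Fabp1* was most like *Plekhh3* (r = 0.787) and *Retsat* (r = 0.766), and *Slc27a1* was most like *Gpr165* (r = 0.752) and *Olfr229* (r = 0.747).

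Among the members themselves, deviations from the group means ran together for *Fabp1* and *Fabp2* (r = 0.744), *Fabp4* and *Lpl* (r = 0.738), *Cd36* and *Fabp2* (r = 0.663), *Cd36* and *Fabp4* (r = 0.662) and *Cd36* and *Lpl* (r = 0.65). *Fabp5* ran against *Cd36* (r = -0.653) and *Fabp2* (r = -0.515). *Slc27a4* ran against *Lpl* (r = -0.576). These values describe 48 arrays without array weights and were not tested.

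Other genes of the same families were taken from a list of 14, of which 7 passed the filter. *Fabp7*, the brain FABP, rose on HFD in Pparα-/- mice by 0.97 (adjusted p = 0.00109) and exceeded the WT level on HFD in Pparα-/- (1.88, adjusted p = 1.01e-09) and Pparα hep-/- mice (1.03, adjusted p = 4.06e-04). *Fabp12* was lower on HFD in every genotype, at -0.40, -0.63 and -0.45 for WT, Pparα hep-/- and Pparα-/-. *Slc27a5*, the transporter and bile acyl-CoA synthetase of liver, fell on HFD in Pparα hep-/- mice by 0.22 (adjusted p = 0.00452), as did *Slc27a3* by 0.40 (adjusted p = 0.00198). Of the 7 genes, 1 fell in WT mice, 3 fell in Pparα hep-/- mice, and 1 rose and 1 fell in Pparα-/- mice, at median differences of 0.01, -0.04 and -0.03 against -0.00, -0.01 and -0.01 over all genes. Of all probes 10.1% fell in WT and 10.8% in Pparα hep-/- mice, and 12.2% rose and 12.6% fell in Pparα-/- mice. The WT and Pparα-/- counts of the list lie close to these shares.

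Genes that handle LPL and the lipoproteins it acts on numbered 17, all tested. On HFD 2 rose and 2 fell in WT, 3 and 3 in Pparα hep-/-, and 6 and 1 in Pparα-/- mice. The median differences of the list were 0.13, 0.01 and -0.02 in turn, against -0.00, -0.01 and -0.01 over all genes. Of all probes 8.6% rose and 10.1% fell in WT mice, 9.46% and 10.8% in Pparα hep-/-, and 12.2% and 12.6% in Pparα-/- mice, and the WT counts of the list lie close to these shares. *Vldlr*, the receptor of very low density lipoproteins, rose in all 3 genotypes (1.05, 0.94 and 0.68) and in Pparα-/- mice exceeded the WT level by 3.27 on CTRL (adjusted p = 1.16e-12) and 2.90 on HFD (adjusted p = 2.78e-13). *Angptl4*, an inhibitor of LPL, differed between Pparα-/- and WT mice by -1.09 on CTRL (adjusted p = 4.98e-04) and -0.82 on HFD (adjusted p = 0.00156). *Apoc2*, the activator of LPL, rose on HFD in both mutants (0.42 for Pparα hep-/- and 0.90 for Pparα-/-) and exceeded the WT level on HFD by 0.64 in both. *Gm6484*, an older name of *Angptl8*, which is a further LPL regulator, fell on HFD in WT mice (-1.50, adjusted p = 0.00494).

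Genes of acyl-CoA synthesis and binding, the step after uptake, were tested for 14 of 15. On HFD 6 rose and 1 fell in WT mice, 4 rose and 4 fell in Pparα hep-/- mice, and 4 rose and 2 fell in Pparα-/- mice, at median differences of 0.14, -0.04 and -0.07 against -0.00, -0.01 and -0.01 over all genes. Of all probes 8.6% rose and 10.1% fell in WT mice, 9.46% and 10.8% in Pparα hep-/-, and 12.2% and 12.6% in Pparα-/- mice. *Acsl1*, the main long-chain acyl-CoA synthetase of liver, rose by 0.70 in WT mice (adjusted p = 4.11e-04) and on HFD lay below the WT level in both mutants (-0.81 for Pparα hep-/- and -0.77 for Pparα-/-). Against WT mice on HFD, 7 of 14 were lower in Pparα hep-/- and 9 of 14 in Pparα-/- mice, with 1 higher in each, at median differences of -0.20 and -0.44 against -0.02 over all genes in each. Of all probes 13.4% were lower and 13.3% higher in Pparα hep-/-, and 24% lower and 21.8% higher in Pparα-/- mice.

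Of 13 genes of caveolae and partners of CD36, 8 were higher and 3 lower on HFD in Pparα-/- mice against WT mice, at a median difference of 0.43 against -0.02 over all genes. Of all probes 21.8% were higher and 24% lower in this comparison, and the count of lower genes lies close to its share. The largest were *Tlr2*, a receptor that signals with CD36 (2.26, adjusted p = 6.69e-10), *Msr1*, a scavenger receptor of macrophages (1.13, adjusted p = 3.79e-08), and *Scarb1*, the HDL receptor of the CD36 family (0.80, adjusted p = 9.46e-11). In Pparα hep-/- mice 5 were higher and 2 lower than in WT mice on HFD (13.3% and 13.4% of all probes), at a median of 0.17. *Cav1*, which forms caveolae, fell on HFD in both mutants (-0.59 for Pparα hep-/- and -0.71 for Pparα-/-).

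Of 11 nuclear receptors, *Pparg*, whose product drives *Cd36* and *Fabp4* in fat, rose on HFD in all 3 genotypes, by 1.17 for WT (adjusted p = 8.71e-04), 0.94 for Pparα hep-/- (adjusted p = 0.0018) and 1.19 for Pparα-/- mice (adjusted p = 1.75e-04). Pparα hep-/- mice exceeded WT mice by 0.95 on CTRL (adjusted p = 0.00341) and 0.72 on HFD (adjusted p = 0.0146). Of 19 known PPARα targets of fatty acid oxidation, 14 rose on HFD in WT mice, and 11 rose in Pparα hep-/- (1 fell) and 11 in Pparα-/- mice, at median differences of 0.48, 0.38 and 0.50 against -0.00, -0.01 and -0.01 over all genes. Of all probes 8.6%, 9.46% and 12.2% rose. Against WT mice on HFD, 13 of 19 were lower and 1 higher in Pparα hep-/- mice, and 15 of 19 were lower in Pparα-/- mice (13.4% and 24% of all probes were lower), led by *Vnn1*, the pantetheinase vanin 1 (-2.88 and -4.70). Among the 9 uptake and binding genes, the ones lower than in WT mice on HFD were *Slc27a1* and *Slc27a2* in both mutants and *Fabp1* in Pparα-/- mice, whereas *Cd36*, *Fabp4* and *Lpl* were higher in both. Of these calls, *Cd36* in Pparα hep-/- mice and *Fabp4* in both mutants were not kept in all alternatives.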

How the data were processed

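Agilent Feature Extraction (version 10.10.1.1 per the submitters' processing notes) wrote the deposited spot intensities, and probe coordinates are mm9. Normalised log2 values that the authors deposited for the same arrays were used here as an alternative (lowest correlation of an array with the values used here, r = 0.999). Median signals were not background-subtracted. Control spots and spots marked as outliers were left out (195 missing values), and log2 values were averaged per probe and quantile normalised. A probe was kept if 4 or more of the 8 arrays in some group had it well above background. Differences were fitted with limma 3.58.1 (R 4.3.3, with version 1.17.8 of data.table for reading) over all 6 groups, with array weights (0.189 to 2.53), the wash batch as a term and eBayes. Calls were made at an adjusted p of at most 0.05 (Benjamini-Hochberg over all 33323 probes, within each comparison). Confidence intervals are 95% and give the uncertainty of the fitted difference, not the range of single mice.

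The brightest probe stood for a gene. All 9 genes and both of the likest gene names of each were named, and from the pathway and marker lists the genes that a sentence describes. Members, lists and tests were chosen with earlier results of these data known. Groups follow the labels. The alternatives were the processed signal scaled to the 75th percentile, normexp (offset 50), no array weights, no filter, no wash term, the slide or the replicate number as a block, the deposited log2 values, only the groups compared, the mean of all probes of a gene, and each array left out. Leaving out arrays of weight under 0.5 or under 0.6 was added after the data were seen. The fit was tested on simulated data.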

Additional observations from a re-analysis of the deposited data

Results flagged for a closer look

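In 5 of 54 groups of 8 mice, 1 mouse lay apart from the rest by Dixon's ratio, its gap to the nearest mouse over the whole range (past the 95% critical value, which chance passes in about 1 in 20 groups). The ratio was 0.686 for *Lpl* in WT HFD mouse 6 (11.48, nearest 9.17) and 0.67 for *Lpl* in Pparα hep-/- CTRL mouse 1 (12.38, nearest 10.14). It was 0.593 for *Fabp4* in the same WT HFD mouse 6 (11.75, nearest 10.43). For *Fabp1* it was 0.71 in Pparα hep-/- CTRL mouse 5, a low value (18.17, nearest 18.29), and for *Slc27a1* 0.547 in Pparα hep-/- HFD mouse 4 (8.88, nearest 8.34).

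The diet response differed between genotypes by the test of the difference in 7 cases. For *Lpl* the response exceeded that of WT mice by 2.43 (Pparα hep-/-) and 2.69 (Pparα-/-). For *Slc27a1* these differences were -0.647 and -0.641, and for *Slc27a2* -0.481 and -0.278. For *Fabp5* the response of Pparα-/- mice differed from that of Pparα hep-/- mice by 1.91.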

How the results depend on the processing

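Of 46 calls among 108 gene and comparison pairs, 24 were kept in all 12 alternatives and all 48 fits that left out 1 array, and 22 were not. The number of arrays limits small differences, and probes near background carry little signal. Without array weights 19 calls were lost, without the filter 9, with only the groups compared 6, without the wash term 5, with the processed signal 5 and with normexp or the slide block 0. *Slc27a2* on HFD in Pparα-/- mice turned to -0.0216 with the processed signal, and its difference between Pparα-/- and WT mice on CTRL to 0.026 in the first wash batch alone. The cause was not tested. The HFD response of WT mice went from 6 called genes to 4 without array weights, without the filter or with only the groups compared. Counts that moved by over 1.5 times were these. With the processed signal, Pparα-/- against WT on CTRL went from 4 to 2, Pparα-/- against Pparα hep-/- from 5 to 3 on CTRL and from 1 to 2 on HFD. Without array weights, the HFD response of Pparα hep-/- mice went from 4 to 1, Pparα-/- against WT on CTRL from 4 to 1, Pparα hep-/- against WT on HFD from 5 to 3, Pparα-/- against Pparα hep-/- on HFD from 1 to 0, and the differences in response from 3 to 0 (Pparα hep-/- against WT) and from 1 to 0 (between mutants). Without the filter the HFD response of Pparα hep-/- mice and Pparα-/- against WT on CTRL each gave 2, and the response between mutants 0. Without the wash term the HFD response of Pparα hep-/- mice gave 2. With only the groups compared, Pparα-/- against WT on CTRL, the mutants on HFD and the response between mutants each gave 2. The mutants on HFD also gave 2 with the mean of the probes. Without the arrays of weight under 0.5 or under 0.6 the mutants on HFD and the response between mutants each gave 2, and under 0.6 the response of Pparα hep-/- against WT gave 5. Leaving out 1 array at a time gave 5 to 7 (WT), 3 to 5 (Pparα hep-/-) and 6 to 8 (Pparα-/-) for the HFD response, 2 to 3, 2 to 4 and 5 to 5 for Pparα hep-/- against WT, Pparα-/- against WT and between mutants on CTRL, 4 to 6, 6 to 7 and 1 to 2 on HFD, and 3 to 5, 2 to 4 and 0 to 2 for the differences in response. Same-numbered mice did not pair (120 pairs, r from -0.449 to 0.694, median 0.0223, 35 over 0.1). With the replicate number as a block, the mutants on HFD gave 2 (*Lpl* 0.86, adjusted p = 0.0482), *Slc27a2* lost its Pparα-/- against WT difference in response (-0.24, adjusted p = 0.0958), and no other called gene was lost. Counts over all probes moved by over 1.5 times most without array weights. The HFD response went from 6735 to 1270 (Pparα hep-/-) and from 8273 to 4034 (Pparα-/-), Pparα hep-/- against WT on HFD from 8893 to 3244, the mutants on HFD from 10188 to 6047, and the differences in response from 3472 to 298, from 4781 to 1740 and from 1139 to 110. Without the filter the HFD response of Pparα hep-/- mice gave 3578, Pparα hep-/- against WT on HFD 5633 and the differences in response 1226, 2528 and 399. Without the wash term the first gave 4236 and the first 2 differences in response 2185 and 3099. The slide block gave 2122 and the replicate block 2276 for Pparα hep-/- against WT. With 1 array left out, counts over all probes fell by over 1.5 times in 3 comparisons. The HFD response of Pparα hep-/- mice fell to 4202 at the lowest (HFD mouse 6, and also CTRL mouse 4), the Pparα hep-/- against WT response to 2118 (WT HFD mouse 7, and also WT CTRL mouse 3), and the response between mutants to 550 (Pparα hep-/- HFD mouse 6, and also Pparα hep-/- CTRL mouse 8, Pparα-/- CTRL mouse 6 and Pparα-/- HFD mice 7 and 8). No setting moved the median of all probes by over 0.1.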
